A study of Homo sapiens with 4 samples.

Results

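The calsyntenins and the neuronal calcium sensors named here are 8 genes of 60721 in the count table: CLSTN1, CLSTN2 and CLSTN3, and VSNL1, HPCAL1, HPCA, NCALD and NCS1. The set was chosen on measured values of these libraries, because CLSTN2 was lower and VSNL1 higher after TLN1 silencing. The other 6 entered as their relatives. CLSTN2 and VSNL1 are therefore described without a test. Of the 8 genes, 6 passed the filter on low counts and were among the 16137 genes tested. HPCA and NCALD did not pass it, and these 2 also have no row in the deposited table of log2 CPM (CPM is the count scaled to a common library size).

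Hs578T is an established line from a human breast carcinoma. Its cells were transfected with GFP and, at 1.6 µM, either a non-targeting RNA (SCR) or siRNA against TLN1 (siTLN1), the gene of the adhesion protein talin-1, and were collected 48 h later. Each group held 2 libraries of polyadenylated RNA, described as biological replicates of 1 cell line, with total counts from 31854322 to 46353297. Within each group they are called library a and library b here. The letters stand for a number in the column names that recurs in both groups, and nothing in the labels ties it to a shared preparation. The siRNA's sequence is not given in the sources used here, and without a second siRNA or a rescue an effect of talin-1 loss and an effect of the RNA itself cannot be told apart. TLN1 fell from 868 and 874 CPM in the SCR libraries to 51.9 and 44.8 CPM in the siTLN1 libraries, in the direction its labels give (adjusted p 3.89e-13 by edgeR's test). Markers of epithelium were sparse although the source is labelled epithelial: GRHL2 had 0 counts in all libraries, ESRP1 had at most 3 per library, and the summed level of 8 markers was 36.8 to 45.9 RPKM (CPM per kilobase of exon), most of it KRT18. The 8 mesenchymal markers summed to between 4464 and 5009 RPKM. The 10 neuronal markers summed to between 7.81 and 8.55 RPKM, and RBFOX3, STMN2 and SYN1 had at most 3 counts per library. Others were present: TUBB3 had 360 to 668 counts per library, NEFL 323 to 553, MAP2 192 to 292 and SNAP25 177 to 270. In bulk RNA, fewer cells that express a gene and less RNA per cell cannot be told apart.

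Calsyntenins are single-pass membrane proteins with cadherin repeats in their outer part. They bind kinesin light chain and the adaptors of the APBA (X11/Mint) family through their cytoplasmic tail, are carried in vesicles along microtubules, and are cut by ADAM proteases and then gamma-secretase, much as the amyloid precursor protein is. In neurons they also act at synapses, where CLSTN2 and CLSTN3 bear on inhibitory and excitatory contacts. Neuronal calcium sensors are small EF-hand proteins, most of them N-myristoylated, which in many members moves them to membranes when calcium binds. NCS1 is the most widely expressed of them and regulates a phosphatidylinositol 4-kinase. HPCAL1, HPCA (hippocalcin) and NCALD (neurocalcin delta) are close relatives of VSNL1 (visinin-like 1), and all were described first in brain or retina.

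Before the levels, the members' transcripts are shown for a 7-base word, GACAACA, that was singled out in an earlier analysis of the same fold changes: genes with it in the 3′ UTR were lower more often, as given further on. Its copies in the members and in TLN1 are shown with 10 bases on each side, 5′ to 3′, from 1 GENCODE 29 coding transcript per gene (GRCh38). Capitals mark the word. It lies in the 3′ UTR of CLSTN2, NCS1 and VSNL1, and in the coding sequence of CLSTN3, CLSTN1 and TLN1.
CLSTN2 copy 1 (chr3:140567058-140567084, plus strand): actgccccagGACAACAcaacaaggac
CLSTN2 copy 2 (chr3:140567087-140567113, plus strand): tcacaacaagGACAACAaggacacaac
CLSTN2 copy 3 (chr3:140568932-140568958, plus strand): aaacagtggtGACAACAaatcagagct
CLSTN2 copy 4 (chr3:140574266-140574292, plus strand): gtgaacagagGACAACAtttgtgatgc
CLSTN2 copy 5 (chr3:140574609-140574635, plus strand): attaatcacaGACAACAgaaacgtgtt
NCS1 (chr9:130233192-130233218, plus strand): tccggaaaacGACAACAcgaaatggaa
VSNL1 (chr2:17656280-17656306, plus strand): aagaattaatGACAACAaaagggaaaa
CLSTN3 copy 1 (chr12:7133070-7133096, plus strand): catggagaatGACAACAcggtcctact
CLSTN3 copy 2 (chr12:7142105-7142131, plus strand): ggaaaagggaGACAACAgtacagacac
CLSTN1 (chr1:9773322-9773348, minus strand): cacagagaacGACAACAccgtgctcct
TLN1 (chr9:35706027-35706053, minus strand): tagaggacctGACAACAaccctcaacg

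The 3′ UTR of CLSTN2, at 11144 bases, held 5 copies, which start 815, 844, 2689, 8023 and 8366 bases after the stop codon. NCS1 held 1 copy in 4332 bases, which starts 230 bases after the stop codon. VSNL1 held 1 copy in 1624 bases, which starts 896 bases after the stop codon, and 2 of its 5 annotated coding transcripts carry it. CLSTN3 held 2 copies and CLSTN1 held 1 in coding sequence, with none in the 3′ UTR of any annotated transcript. The coding transcripts of HPCAL1, HPCA and NCALD held none in any region.

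The calsyntenins split 3 ways. CLSTN1, by far the most abundant, did not differ beyond the spread of its libraries, CLSTN2 was lower in both siTLN1 libraries, and CLSTN3 was higher in both. CLSTN1 (ENSG00000171603.18; GRCh38 chromosome 1, 9728926 to 9823984, minus strand) had 544 and 514 CPM in SCR against 550 and 471 CPM in siTLN1. The groups overlapped, since siTLN1 library a lay above both SCR libraries and siTLN1 library b below both. By edgeR's quasi-likelihood test CLSTN1 had a log2 fold change of −0.050 (standard error 0.10; 95% interval −0.27 to 0.17) and a Benjamini-Hochberg adjusted p of 0.851. That p does not show that the level was the same. Without siTLN1 library b the value turned to 0.061.

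CLSTN2 (ENSG00000158258.16; chromosome 3, 139935185 to 140577397, plus strand) is the calsyntenin with the longest exon length, 14596 bases. It had 970 and 1268 counts in SCR libraries a and b, and 185 and 350 in siTLN1 libraries a and b. Scaled, these were 30.5 and 36.4 CPM against 5.08 and 7.45 CPM, so both siTLN1 libraries lay below both SCR libraries. The siTLN1 mean was 18.7% of the SCR mean, or −2.40 on the log2 scale (standard error 0.16). Among 10486 genes with a mean of at least 5 CPM, 1 gene had a lower log2 fold change, which was TLN1. This rank belongs to the values that chose the gene.

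CLSTN3 (ENSG00000139182.15; chromosome 12, 7129698 to 7158945, plus strand) moved the other way. It had 10.8 and 11.8 CPM in SCR against 19.6 and 15.9 CPM in siTLN1, with no overlap. The siTLN1 mean was 1.57 times the SCR mean. That is a log2 fold change of 0.65 (standard error 0.13, 95% interval 0.38 to 0.92; edgeR adjusted p 0.00568). Without siTLN1 library a, the higher of the siTLN1 libraries, it was 0.49 and missed the threshold (adjusted p 0.127).

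Among the neuronal calcium sensors, VSNL1 was higher, NCS1 and HPCAL1 were lower, and HPCA and NCALD were near the limit of detection. VSNL1 (ENSG00000163032.12; chromosome 2, 17539126 to 17657018, plus strand) had 119 and 161 counts in SCR against 287 and 434 in siTLN1. Scaled, these were 3.74 and 4.62 CPM against 7.88 and 9.24 CPM. Both siTLN1 libraries lay above both SCR libraries, and the mean was 2.05 times that of SCR. On the log2 scale this was 1.03 (standard error 0.16). A higher value was found for 3 of the 10486 genes at 5 CPM or more, and for 129 of all 16137 tested. These ranks, too, belong to the values that chose the gene. VSNL1 reached the 5 CPM cut only through its siTLN1 libraries, with a mean of 8.56 CPM there and 4.18 CPM in SCR.

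NCS1 (ENSG00000107130.10; chromosome 9, 130172404 to 130237303, plus strand) fell from 77.2 and 80.2 CPM to 43.1 and 48.4 CPM, to 58.1% of the SCR mean. NCS1 had the largest log2 fold change of the 4 tested relatives, −0.78 (standard error 0.098; edgeR adjusted p 0.000121), with a 95% interval from −0.99 to −0.57. Every fit with 1 library left out kept it past the threshold, with values from −0.86 to −0.70.

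HPCAL1 (ENSG00000115756.13; chromosome 2, 10302889 to 10427617, plus strand) fell less, from 90.8 and 105 CPM to 68.8 and 81.0 CPM, or 76.6% of the SCR mean. The groups did not overlap. HPCAL1 had a log2 fold change of −0.38 (standard error 0.11; edgeR adjusted p 0.0431). This call was lost when genes of low counts were kept (adjusted p 0.111), without siTLN1 library a (−0.27, adjusted p 0.424) and without SCR library b (−0.28, adjusted p 0.215).

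Of the 4 tested members that entered as relatives, 3 passed the threshold, and with CLSTN2 and VSNL1 the count was 5 of 6, with 2 higher and 3 lower. Over all tested genes, 6.07% passed, 2.30% higher and 3.77% lower. Nothing is read from this contrast, because the set was put together with the results known. In both groups library b was above library a for CLSTN2, VSNL1, NCS1 and HPCAL1, and below it for CLSTN1. For CLSTN3, library b was above library a in SCR and below it in siTLN1. A lack of overlap is weak by itself, since 2 libraries against 2 would be apart with a probability of 0.333 if the labels made no difference. The share of all tested genes without overlap is not given here.

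**Figure D1:**
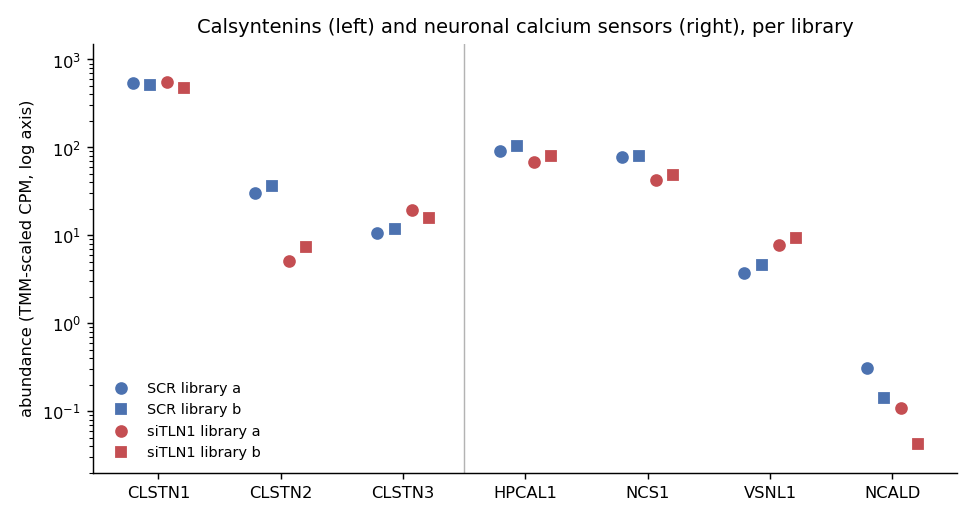
Abundance of 7 members in TMM-scaled CPM (log axis), with SCR in blue, siTLN1 in red, circles for library a and squares for library b. The groups are apart for CLSTN2 (30.5 and 36.4 against 5.08 and 7.45 CPM), CLSTN3, HPCAL1, NCS1, VSNL1 and NCALD (at most 10 counts per library), and overlap for CLSTN1. If the labels made no difference, 2 libraries against 2 would be apart with a probability of 0.333. HPCA, with 0 counts in 2 libraries, is not drawn.

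HPCA, on chromosome 1, had 0 and 1 counts in SCR and 2 and 0 in siTLN1. With 3 counts taken as the limit that a count of 0 allows, HPCA could reach 0.0944 CPM in SCR library a and 0.0638 CPM in siTLN1 library b, and no fold is given. NCALD, on chromosome 8, had 10 and 5 counts in SCR against 4 and 2 in siTLN1. The summed counts were 15 against 6, a ratio of scaled counts of 0.32 with an exact 95% binomial interval of 0.102 to 0.871. That interval covers counting error only. When every gene with a count was tested, NCALD had an adjusted p of 0.392 and HPCA one of 0.926 by the same edgeR test, so neither was called.

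**Figure D2:**
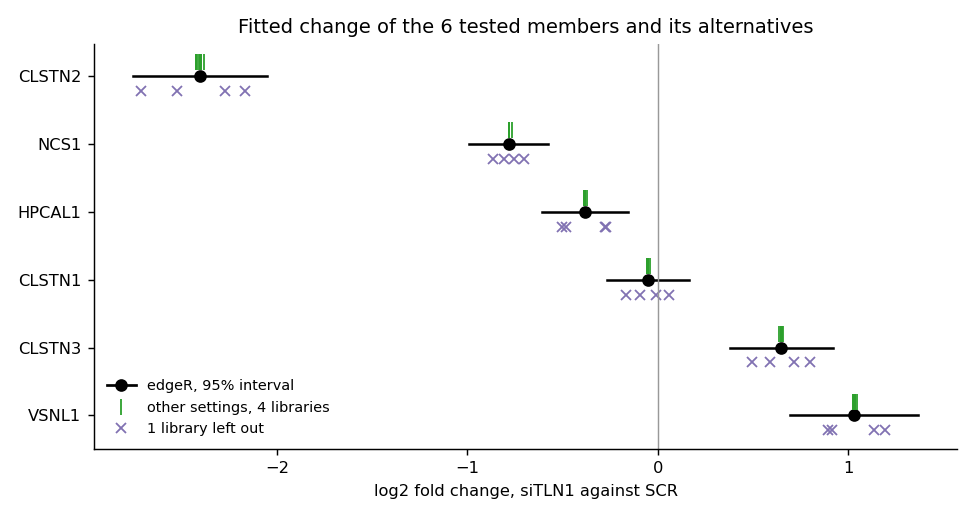
Log2 fold change of the 6 tested members, siTLN1 against SCR, with the edgeR estimate and its 95% interval in black, the other settings with all 4 libraries as green ticks, and fits without 1 library as purple crosses. When 1 library is left out, CLSTN1 spans 0, CLSTN2 lies between −2.72 and −2.17 and VSNL1 between 0.89 and 1.20. CLSTN2 and VSNL1 were chosen on these values, so their intervals and ranges only describe them.

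Levels of different genes were compared per exon length, which joins the exon bases of all annotated transcripts. It was 6237 bases for HPCAL1 and 6730 for CLSTN3, whose coding transcripts used above have 1904 and 4185. For NCS1 (5462 and 4991 bases) and CLSTN2 (14596 and 14202) the lengths were closer. By these transcript lengths, CLSTN2 would lie below CLSTN3 in SCR, and HPCAL1 above NCS1 without overlap. Which transcripts these cells express was not tested. In SCR the order of mean RPKM was CLSTN1 (101), HPCAL1 (15.7), NCS1 (14.4), CLSTN2 (2.29), CLSTN3 (1.68) and VSNL1 (1.10), followed by NCALD (0.0285) and HPCA (0.00731). HPCAL1 and NCS1 overlapped between libraries, at 14.6 and 16.8 RPKM against 14.1 and 14.7 RPKM. NCALD and HPCA, with at most 10 counts per library, cannot be ordered beyond counting error, and the other neighbours in this order did not overlap. In siTLN1, HPCAL1 at 12.0 RPKM stood apart from NCS1 at 8.38 RPKM. CLSTN3 followed at 2.64 RPKM and VSNL1 at 2.26 RPKM, which overlapped each other, and CLSTN2 came after them at 0.429 RPKM. By exon length, CLSTN2 thus went from the level above CLSTN3 and VSNL1 to the level below both. By the transcript lengths CLSTN2 was below CLSTN3 in both groups, so the crossing with CLSTN3 depends on the length used. In SCR, CLSTN1 was above 98.1% of all tested genes and CLSTN2 above 44.3%.

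**Figure D3:**
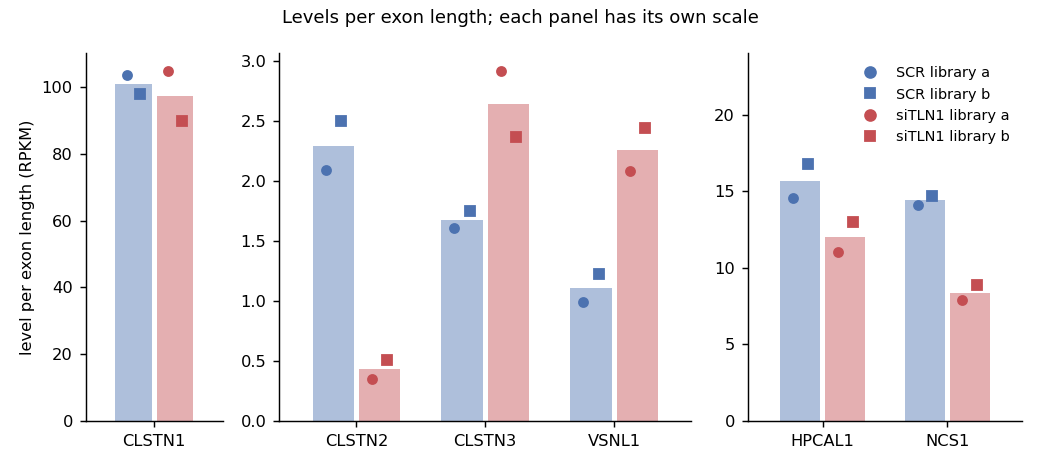
Level per exon length (RPKM) of the 6 tested members, with bars for group means, points for single libraries and a separate scale in each panel. CLSTN2 passes from 2.29 to 0.429 RPKM while CLSTN3 and VSNL1 pass from 1.68 to 2.64 and from 1.10 to 2.26 RPKM. The order of CLSTN2 and CLSTN3 in SCR depends on the length used.

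The summed calsyntenin level overlapped between the groups. It was 107 and 102 RPKM in SCR against 108 and 92.7 RPKM in siTLN1, since CLSTN1 made up between 95.8% and 97.0% of it in all 4 libraries. Within that sum CLSTN2 had 1.95% and 2.44% in SCR against 0.322% and 0.550% in siTLN1, and CLSTN3 had 1.49% and 1.71% against 2.69% and 2.55%. For the neuronal calcium sensors the sum was 29.7 and 32.7 RPKM in SCR against 21.0 and 24.3 RPKM in siTLN1, with no overlap. NCS1 gave 47.6% and 44.9% of it in SCR against 37.5% and 36.5% in siTLN1. VSNL1 gave 3.32% and 3.73% against 9.89% and 10.0%. These sums and shares rest on exon length, and shares per transcript length were not computed. They are descriptions without a test, since 2 libraries against 2 cannot give an exact permutation p under 0.333.

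The partners of the calsyntenins were taken from a list of 16 genes for kinesin-1 chains, APBA adaptors, amyloid precursor proteins and neurexins. Of 14 tested, 1 was higher and 0 were lower, where 2.30% of all tested genes were higher and 3.77% lower. The median log2 fold change was 0.13, against 0.0033 over all tested genes. Without siTLN1 library a this median was 0.046. The gene that rose was KIF5A, a neuronal kinesin-1 heavy chain, from 6.17 and 6.78 CPM to 11.5 and 11.2 CPM (log2 fold change 0.81, adjusted p 0.00134 by edgeR's quasi-likelihood test). Of the 8 genes for ADAM10, ADAM17 and the gamma-secretase subunits, all 8 were tested and 0 passed by edgeR, DESeq2, limma-voom or limma-trend. At an unadjusted p under 0.05, 1 did by edgeR. The gene with the highest mean RPKM over the 4 libraries, NCSTN (nicastrin), had 130 ± 3.91 CPM in SCR and 145 ± 0.343 CPM in siTLN1 (SD, n = 2).

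The remaining genes of the neuronal calcium sensor family were low, with a summed level of 0.459 to 0.639 RPKM. Of 9, 2 were tested, and 0 passed by any of these 4 tools. At an unadjusted p under 0.05, 1 did by edgeR: KCNIP3, a potassium channel-interacting protein, had 3.61 ± 0.105 CPM in SCR and 2.47 ± 0.699 CPM in siTLN1 (SD, n = 2), with an edgeR adjusted p of 0.131. RCVRN (recoverin), GUCA1A and GUCA1C had 0 counts in all 4 libraries. Of 17 genes for partners of these sensors and for the N-myristoyltransferases, 13 were tested, 0 rose and 2 fell, with a median of −0.12. Over all tested genes, 2.30% were higher and 3.77% lower. AP2B1, a subunit of the AP-2 clathrin adaptor to which hippocalcin binds, fell from 346 and 346 CPM to 177 and 204 CPM (log2 fold change −0.86, edgeR adjusted p 4.93e-05). PI4KA, a phosphatidylinositol 4-kinase, fell from 162 and 148 CPM to 116 and 103 CPM (log2 fold change −0.50, edgeR adjusted p 0.00532), and lost its call without siTLN1 library b (adjusted p 0.0598). The kinase that NCS1 is best known to regulate, PI4KB, was tested and did not pass, at 13.5 and 13.7 RPKM in SCR against 12.7 and 13.5 RPKM in siTLN1.

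Other EF-hand calcium-binding proteins gave 0 genes higher and 4 lower of 20 tested from a list of 27, where 3.77% of all tested genes were lower. The median was −0.19, and −0.074 without siTLN1 library a. The 4 genes were EFHD1, a mitochondrial EF-hand protein (−0.99), SRI (sorcin, −0.61), CIB1, a calcium- and integrin-binding protein (−0.59), and CHP1, a partner of sodium/proton exchangers (−0.48), given as log2 fold changes. EFHD1 fell from 5.95 ± 0.444 CPM to 3.01 ± 0.439 CPM (SD, n = 2). Adjusted p values by edgeR were 0.00197 for EFHD1, 0.00431 for SRI and CIB1 and 0.00802 for CHP1. Without siTLN1 library a, SRI, CIB1 and CHP1 missed the threshold (adjusted p 0.0896, 0.101 and 0.157). Of the 8 mesenchymal markers, all tested, 2 fell and 0 rose: CDH2 (N-cadherin) and SPARC, at −0.89 and −0.48. SPARC missed the threshold whichever library was left out, with values from −0.52 to −0.43. Among the epithelial and neuronal markers 0 of 4 and 0 of 6 tested passed by any of the 4 tools, and 1 of each did at an unadjusted p under 0.05 by edgeR. The genes with the highest RPKM over the 4 libraries were KRT18, at 117 ± 18.9 CPM in SCR and 119 ± 6.19 CPM in siTLN1, and TUBB3, at 12.3 ± 1.43 CPM and 12.5 ± 2.48 CPM (SD, n = 2).

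**Figure D4:**
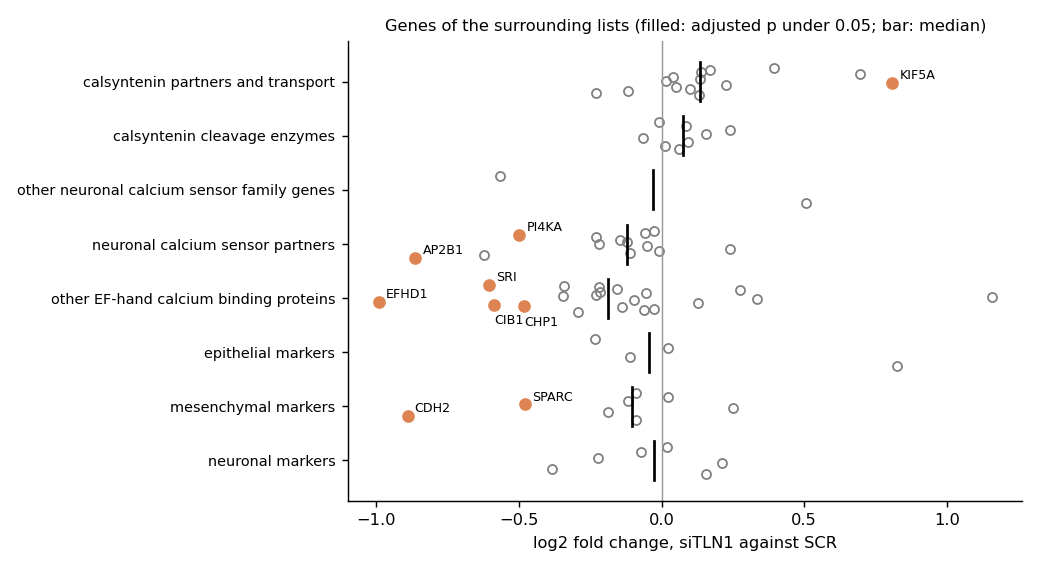
Log2 fold change, siTLN1 against SCR, of each tested gene of 8 lists, with filled points for an adjusted p under 0.05 and black bars for list medians. KIF5A (0.81) is the filled point above 0, and the filled points below 0 are AP2B1, PI4KA, EFHD1, SRI, CIB1, CHP1, CDH2 and SPARC.

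The copies of the word were set against all genes in the same way. The comparison used 9499 protein-coding genes other than TLN1, each with 5 CPM or more on average and 100 or more bases of 3′ UTR. Of these, 757 (7.97%) held 1 or more copies there. Their median log2 fold change was −0.097, against 0.0087 for the 8742 genes without a copy. Of the 757, 19.9% were called lower and 1.85% higher, against 3.98% and 2.68% of the genes without one. Genes with a copy also had longer 3′ UTRs, with a median of 3191 bases against 1106.5 bases, and the part of length was not tested. As the word was found in this contrast, these values describe it and support nothing. NCS1 (−0.78) lay at about the 5th percentile of genes with 1 copy (−0.78). VSNL1, chosen for its higher level, is the other member with 1 copy there.

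CLSTN2 shared its 5 copies with 1 other gene, IGF2R, the receptor for insulin-like growth factor 2. IGF2R had a 3′ UTR of 6420 bases, a mean of 430 CPM and a log2 fold change of 0.059 (edgeR adjusted p 0.876). IGF2R was named after its value was seen.

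**Figure D5:**
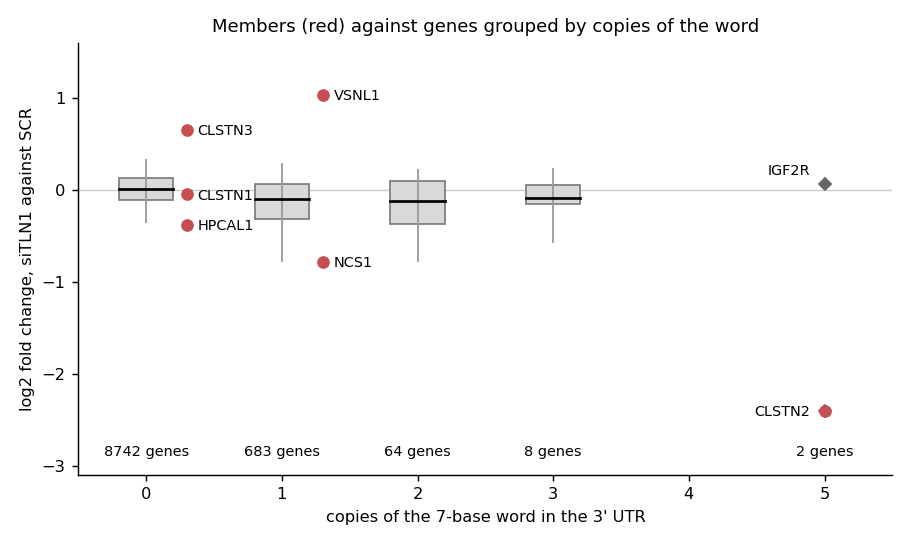
Log2 fold change, siTLN1 against SCR, by number of copies of the 7-base word in the 3′ UTR, with grey boxes for the middle 50% of genes, whiskers from the 5th to the 95th percentile, black medians and members in red. CLSTN2 (−2.40) and IGF2R (0.059) both hold 5 copies, and VSNL1 (1.03) and NCS1 (−0.78) both hold 1.

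The genes beside CLSTN2 and VSNL1 did not pass edgeR's test. CLSTN2 lies between COPB2-DT, which ends 152485 bases before it, and SLC25A36, which begins 364432 bases after it. COPB2-DT had 0.643 ± 0.0646 CPM in SCR and 0.693 ± 0.164 CPM in siTLN1, and SLC25A36 had 52.3 ± 1.53 CPM and 61.5 ± 1.90 CPM (SD, n = 2). Their edgeR adjusted p values were 0.894 and 0.172. VSNL1 lies between CYRIA, at 4.31 ± 0.448 CPM and 5.82 ± 0.617 CPM, and SMC6, at 64.3 ± 5.29 CPM and 59.8 ± 4.02 CPM (SD, n = 2). SMC6 begins 6793 bases past the end of VSNL1 on the opposite strand, and its edgeR adjusted p was 0.628, against 0.126 for CYRIA. Of the 16 nearest tested genes on either side of the 8 members, 1 passed, where 6.07% of all tested genes did. ASS1 (argininosuccinate synthase), 207657 bases after NCS1, fell from 9.97 and 11.6 CPM to 4.92 and 5.49 CPM (log2 fold change −1.05, edgeR adjusted p 0.000275). It was named after its value was seen.

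The genes whose profile over the 4 libraries was most like that of CLSTN2, by Euclidean distance between centred log2 CPM, were BCL7B (0.52), RCN2 (0.68) and MYBL2 (0.91). They fell by 2.15, 1.90 and 1.60 on the log2 scale. For VSNL1 they were FLVCR2 (0.14), LMO2 (0.21) and ITGA10 (0.23), with log2 fold changes of 0.90, 0.84 and 0.82. All 6 were found among 10429 candidates at a mean of 5 CPM or more. FLVCR2, a choline transporter, had 3.37 and 4.08 CPM in SCR against 6.54 and 7.36 CPM in siTLN1. Like VSNL1, it reached the 5 CPM cut only through its siTLN1 libraries, with a mean of 6.95 CPM there and 3.72 CPM in SCR. With 4 libraries in 2 groups, likeness of this kind says little beyond the group difference.

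Counting limits the members unequally, because reads were counted without regard to strand. Exons on the opposite strand covered 3.61% of the exon bases of CLSTN1 (PIK3CD), 2.96% of those of CLSTN3 (ENSG00000256967), 12.6% of those of HPCA (TMEM54) and 4.49% of those of NCALD, and 0 bases of CLSTN2, VSNL1, HPCAL1 and NCS1. PIK3CD, named after its value was seen, fell from 40.9 and 39.0 CPM to 32.4 and 29.5 CPM (log2 fold change −0.37, edgeR adjusted p 0.0378), and its part in the counts of CLSTN1 was not tested. The few counts of HPCA could come from either strand. Stretches of 50 bases that also occur in transcripts of another gene made up between 0% for NCS1 and 7.52% for HPCA, and 0 of the members shared a stretch with another member.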

How the data were processed

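Polyadenylated RNA of 4 Hs578T samples was sequenced from stranded libraries, per the labels' protocols. The authors deposited unnormalized gene counts from featureCounts 2.0.0, run in paired mode without a strand option on GENCODE 33 (GRCh38), per the file headers. STAR 2.7.9a is named in the submitters' processing notes. The authors also deposited log2 CPM values for 16137 genes. When checked, they equalled TMM-scaled log2 CPM, sorted within groups, to within 1e-06. RPKM was computed with the gene lengths that the deposited counts carry. Count columns name their group and a number that recurs in both groups but matches no label. They were used by group, and 0 columns were left unmapped.

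Genes kept by filterByExpr (minimum count 10, minimum total count 15) were compared with edgeR 4.0.16 (R 4.3.3; TMM, estimateDisp, robust glmQLFit with legacy off, glmQLFTest), with Benjamini-Hochberg adjustment over 16137 genes and a threshold of 0.05. Standard errors follow from the quasi-likelihood F. SDs are over 2 libraries. The p values weigh the group difference against the spread between these libraries, which is estimated in part from the other genes. The deepest library held 46353297 counts and the shallowest 31854322, so counting error matters only for genes of few counts. Symbols came from a gene ID table, and 16085 of the tested genes have one. Transcript sequences are those of GENCODE 29 (longest coding sequence, stop codon included), a release other than that of the counts.

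The members, the 8 lists and the naming rule were chosen with earlier results of these data known. By that rule all members, TLN1, up to 6 genes per list past the threshold (otherwise the one with the highest mean RPKM), the 3 most alike profiles and the neighbours of CLSTN2 and VSNL1 are named. Other settings tried were a mean of at least 10 counts, every gene kept, RLE scaling, library totals alone, DESeq2 1.42.0, limma 3.58.1 (voom, and trend on the deposited log2 CPM, also with a replicate block), removal of the gene-length trend (span 0.3) and leaving out each library. The legacy quasi-likelihood method was added after seeing the data. The main edgeR procedure and limma-trend without a block were tested on simulated counts, and the other settings were not. Figures used matplotlib 3.10.9.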

Additional observations from a re-analysis of the deposited data

How the results depend on the processing

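With all 4 libraries, 314 of 319 values of the 32 named genes kept their direction and their side of the threshold. HPCAL1 (adjusted p 0.111) and PIK3CD (0.0882) lost their calls with no filter on low counts, where 32708 genes were tested, and KCNIP3, SLC25A36 and CYRIA passed with the replicate block (adjusted p 0.0106, 0.00498 and 0.0166). With 1 library left out, the lone library of an arm is assumed to vary like the other group. Of those 128 values, 14 lost their call and 6 turned: CLSTN1 ranged from −0.17 to 0.061, KRT18 from −0.13 to 0.20, TUBB3 from −0.20 to 0.20 and COPB2-DT from −0.16 to 0.32. The 5 changed members, which include CLSTN2 and VSNL1, chosen on these values, became 3 without siTLN1 library a and 4 without SCR library b. Of the 3 changed relatives, NCS1 alone passed without siTLN1 library a, and CLSTN3 and NCS1 without SCR library b. The 980 changed genes ranged from 347 without siTLN1 library a to 1116 without SCR library a, and the share of lower ones was 62.1%, against 50.7% when siTLN1 library b was left out and 70.3% when siTLN1 library a was. The replicate numbers of the labels do not state a shared preparation, and the differences between replicates correlated across genes at 0.19, or at 0.53 for genes at 5 CPM or more. With all 4 libraries and no replicate block, the changed genes ranged from 663 with no filter on low counts to 1406 with the gene-length trend removed. A replicate block in limma-trend raised the changed genes from 966 to 3645, which hold 970 of the 980 and are 53.1% lower ones, and left 5 changed members. Of the list medians, 3 changed sign, each when a library was left out: the other sensor family genes, the epithelial and the neuronal markers. Depth limits NCALD and HPCA, with 21 and 3 counts in all.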
